A study of Mus musculus with 40 samples.

Results

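The MHC class I presentation genes described here were 10 mouse genes taken by their symbols out of 45706 genes in the tables: H2-K1, H2-D1, B2m, Tap1, Tap2, Tapbp, Psmb8, Psmb9, Psmb10 and Nlrc5. RNA of sorted cells was sequenced in 40 libraries, which fell into 10 groups of 4. Tumor-bearing mice carried Cdx2CreERT2 - Apc fl/fl on a background read here as C57Bl6/Sv129 (the number at its end goes up by 1 from label to label), and tamoxifen (25 mg/kg, injected once i.p.) activated the recombinase at 8 to 10 weeks of age. The Cdx2 promoter directs Cre to the intestinal epithelium, where loss of the tumor suppressor Apc starts adenomas. Healthy mice were C57Bl6 without a transgene and without tamoxifen, so that tumor, transgenes, tamoxifen and strain cannot be told apart in any comparison of tumor-bearing with healthy mice. Neutrophils (CD45+ CD11b+ MHCII- Ly6G+ Ly6C-low) and monocytes (CD45+ CD11b+ MHCII- Ly6G- Ly6C-high) were sorted from the tumors, from the blood of tumor-bearing mice and from the blood of healthy mice. Epithelial cells (EpCAM+ CD45-) and stromal cells (EpCAM- CD45-) were sorted from tumors and from healthy colon. The titles of 3 blood monocyte libraries of healthy mice and of 1 blood neutrophil library of tumor-bearing mice name 2 animals each. The 16 tumor libraries came from 7 named animals, 6 of which gave more than 1 library.

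MHC class I molecules show peptides from inside the cell to CD8+ T cells. The proteasome cuts proteins into peptides, and interferon replaces its 3 constitutive catalytic subunits (Psmb6, Psmb7 and Psmb5) by Psmb9, Psmb10 and Psmb8, the immunoproteasome. The Tap1 and Tap2 proteins together carry the peptides into the endoplasmic reticulum, tapasin (Tapbp) holds the empty class I molecule at this transporter, and the heavy chains H2-K1 and H2-D1 reach the surface with the light chain B2m. Nlrc5 is the transactivator of the class I genes and acts on an upstream module of their promoters. Most nucleated cells carry class I, and loss of the pathway in tumor cells hides them from CD8+ T cells.

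Of the 10 genes, 7 lie on chromosome 17 of the mm10 build, in or near the MHC. Psmb9 (ENSMUSG00000096727) occupies chr17:34181987-34187764 on the minus strand. It is followed by Tap1 (ENSMUSG00000037321) at chr17:34187553-34197225, Psmb8 (ENSMUSG00000024338) at chr17:34197721-34201454 and Tap2 (ENSMUSG00000024339) at chr17:34203527-34216321, all on the plus strand. H2-K1 (ENSMUSG00000061232) lies at chr17:33996017-34000347, Tapbp (ENSMUSG00000024308) at chr17:33915899-33929292 and H2-D1 (ENSMUSG00000073411) at chr17:35262730-35267499. B2m (ENSMUSG00000060802) lies at chr2:122147686-122153083, and Psmb10 (ENSMUSG00000031897) and Nlrc5 (ENSMUSG00000074151) are both on chromosome 8, at chr8:105935735-105938444 and chr8:94434356-94527272. Annotated genes overlap 8 of the 10, among them Tap1 and Psmb9 on opposite strands, and no strand was used as far as the sources state, so their reads at the overlaps cannot be told apart. H2-K1 and H2-D1 are near-identical in sequence over long stretches and their reads may have been split between them or lost, so both values are uncertain.

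RefSeq promoter windows of GRCm38.p6 were found for 8 of the 10 genes. The 250 bases before the start of B2m and of H2-K1 are shown because both genes belong to the same complex and because Nlrc5 acts through this region in class I genes. In the B2m window, at chr2:122147437-122147686 on the plus strand, capitals mark, from left to right, an interferon-stimulated response element core (GAAA, any 2 bases and GAAA), a cyclic AMP response element half-site (TGACG) and a Y box (CCAAT, read on the other strand as ATTGG). The H2-K1 window, at chr17:34000348-34000597 on the minus strand, has the half-site and the Y box in the same order.
B2m: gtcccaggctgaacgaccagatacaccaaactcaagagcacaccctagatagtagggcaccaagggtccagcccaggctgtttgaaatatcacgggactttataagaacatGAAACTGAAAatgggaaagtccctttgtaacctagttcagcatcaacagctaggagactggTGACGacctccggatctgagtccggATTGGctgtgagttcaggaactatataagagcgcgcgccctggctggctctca
H2-K1: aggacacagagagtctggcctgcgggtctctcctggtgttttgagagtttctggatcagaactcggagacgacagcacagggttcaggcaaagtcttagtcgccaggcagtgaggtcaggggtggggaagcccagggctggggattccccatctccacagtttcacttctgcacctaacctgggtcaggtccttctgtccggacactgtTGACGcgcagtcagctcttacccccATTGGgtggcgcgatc

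In B2m, H2-K1 and H2-D1 the half-site and the Y box stood 20 bases apart, in the same orientation. The stretch of 30 bases lay at chr2:122147609-122147638 (plus strand) in B2m, at chr17:34000359-34000388 (minus strand) in H2-K1 and at chr17:35262993-35263022 (plus strand) in H2-D1, and the capitals again mark the half-site and the Y box.
B2m: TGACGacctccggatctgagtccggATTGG
H2-K1: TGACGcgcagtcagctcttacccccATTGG
H2-D1: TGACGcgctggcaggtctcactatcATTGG
This spacing was searched on both strands after the matches had been seen, and it was present in 0.0913% of 32851 promoter windows. Single motifs, also searched on both strands, were more common. The half-site was present in 17.8% of all windows and in 5 of the 8 genes (B2m, H2-D1, H2-K1, Psmb9 and Tap1). The Y box was present in 33.8% and in 6 of the 8 (the same 5 and Tapbp). The response element core was present in 2.98% and in 1 of the 8 (B2m), and the gamma-activated site (TTCNNNGAA) in 7.02% and in 1 of the 8 (Psmb8). The RefSeq starts of Tap1 and Psmb9 point away from each other and are 225 bases apart. Their windows therefore share the same half-site and the same Y box, each of which is counted for both genes. A match of letters is a description of the sequence and not a bound site. Only exact matches of these patterns were searched, so near matches are not marked. A gene without a match may still hold such an element.

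Total counts were between 10717873 and 38002939 per library, and the 10 genes took between 0.0161% and 1.04% of them. Mitochondrial genes took 5.34% to 83.9% of the counts. By the median over 6 epithelial markers (Epcam, Cdh1, Krt8, Krt20, Vil1 and Cldn7), each as a percentage of its mean RPKM in tumor epithelium, tumor neutrophil replicate 1 stood at 69.2%, and tumor stromal replicates 1 and 2 stood at 97.0% and 51.1%, against 5.56% to 15.6% and 12.1% to 18.5% in the other libraries of these groups. Without tumor neutrophil replicate 1 the members that passed numbered 0 in tumor against blood neutrophils, 1 in tumor neutrophils against monocytes, 8 against epithelium and 3 against stroma.

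**Figure D1:**
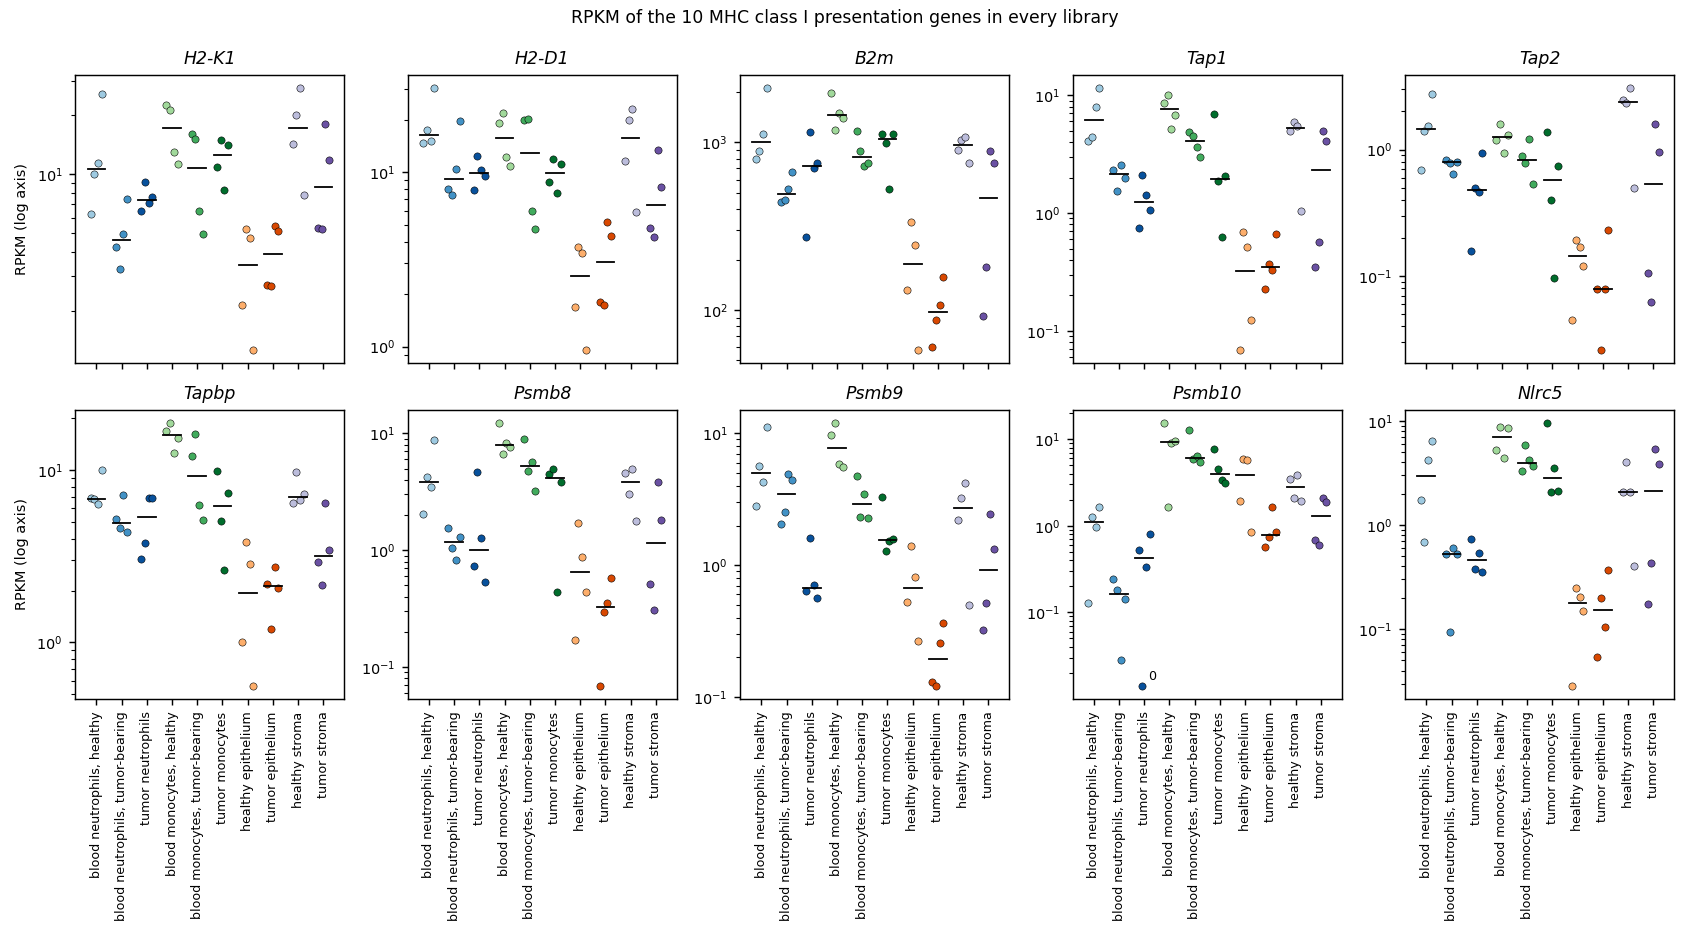
RPKM (reads per kilobase of transcript and per 1e+06 reads, log axis) of each of the 10 genes in all 40 libraries. Each point is 1 library, the bar is the median of the 4 libraries of a group, and the 1 point marked 0 is Psmb10 in tumor neutrophil replicate 2, drawn at the bottom because a log axis has no 0. Epithelial cells sit lowest for most genes, with B2m at 57.7 to 333 RPKM in healthy and 60.1 to 158 RPKM in tumor epithelium.

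B2m was by far the most abundant of the 10 in RPKM, a scale per transcript length. Its mean level was highest in blood monocytes of healthy mice (1514 ± 329 RPKM, SD, n = 4) and blood neutrophils of healthy mice (1232 ± 608). It was followed by healthy colon stromal cells (942 ± 150), tumor monocytes (938 ± 281), blood monocytes of tumor-bearing mice (883 ± 204), tumor neutrophils (719 ± 359), blood neutrophils of tumor-bearing mice (524 ± 105) and tumor stromal cells (479 ± 402). Healthy colon epithelial cells (192 ± 122) and tumor epithelial cells (103 ± 41.3) had the lowest levels, so the highest mean was 14.7 times the lowest. Every group overlapped with its neighbor in this order. Over the 10 genes, 89 of 90 such neighboring pairs overlapped in RPKM, the exception being Tap1 in tumor neutrophils above tumor epithelial cells. After the libraries were rescaled with TMM factors 86 of 90 overlapped.

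For the other 9 genes the highest group mean was 5.22 (H2-K1) to 59.8 (Psmb10) times the lowest in RPKM. Blood monocytes of healthy mice had the highest mean for Tap1, Tapbp, Psmb8, Psmb9, Psmb10 and Nlrc5, blood neutrophils of healthy mice for H2-D1, and healthy colon stromal cells for H2-K1 and Tap2. In RPKM the lowest mean was in healthy colon epithelial cells for H2-K1, H2-D1, Tap1 and Nlrc5. It was in tumor epithelial cells for Tap2, Tapbp, Psmb8 and Psmb9. On the TMM scale tumor epithelial cells had the lowest mean for every gene but Psmb10. The highest mean on that scale was in blood neutrophils of healthy mice for H2-K1, H2-D1, B2m, Tap1, Tap2 and Psmb9. So the groups at both ends depended on the scale. Psmb10 departed from the other members, since its lowest mean was in blood neutrophils of tumor-bearing mice on both scales. It had 2.0 to 24 counts per library there. In tumor neutrophil replicate 2 no count of Psmb10 was found, which at 17980197 total counts allows up to 3 counts, or 0.167 CPM (counting error only).

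Blood neutrophils of tumor-bearing and healthy mice were compared to ask whether the pathway differs before the cells reach the tumor. Tap1, Psmb8 and Nlrc5 were lower in tumor-bearing mice, and all 10 genes had a negative fold change. The 3 genes past an adjusted p of 0.05 (edgeR quasi-likelihood test, Benjamini-Hochberg adjusted over all genes) were read against 2.93% of 13360 genes that passed in this direction, and 3.59% passed as higher. The members had a median log2 fold change of -1.32, against -0.01 for all genes tested, of which 50.4% had a negative value. In bulk samples fewer cells of a type and less RNA per cell cannot be told apart.

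Tap1, a chain of the peptide transporter, was at 2.30, 1.55, 2.56 and 1.98 RPKM in tumor-bearing mice and at 4.10, 4.43, 7.92 and 11.6 RPKM in healthy mice. Its groups did not overlap, and its level fell by 1.74 ± 0.39 on the log2 scale (SE, adjusted p = 0.0269, edgeR). Psmb8, an immunoproteasome subunit, was at 1.55, 1.04, 0.830 and 1.29 RPKM against 2.03, 4.24, 3.46 and 8.68 RPKM in healthy mice. The groups did not overlap here either, and the log2 fold change was -1.97 ± 0.43 (adjusted p = 0.0249, edgeR). Nlrc5, the transactivator, was at 0.530, 0.0930, 0.598 and 0.523 RPKM against 1.74, 0.691, 4.23 and 6.40 RPKM, again without overlap. Its log2 fold change was -2.93 ± 0.76 (adjusted p = 0.0485, edgeR).

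B2m was the fourth gene whose groups did not overlap, at 443, 453, 530 and 670 RPKM against 799, 891, 1119 and 2121 RPKM. Its log2 fold change of -1.23 ± 0.35 missed the threshold (adjusted p = 0.0654, edgeR). In all, 4 of the 10 lay below the healthy libraries in every tumor-bearing library, against 7.75% of all genes. The heavy chain H2-K1 (-1.41 ± 0.45, adjusted p = 0.0969, edgeR), Psmb10 (-2.73 ± 0.75, adjusted p = 0.0579, edgeR) and Tap2 (-1.06 ± 0.40, adjusted p = 0.150, edgeR) did not pass. H2-D1 was at 7.43 to 19.7 RPKM against 14.7 to 30.5, Tapbp at 4.40 to 7.17 against 6.35 to 9.98 and Psmb9 at 2.06 to 4.94 against 2.79 to 11.2, with overlap in each.

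**Figure D2:**
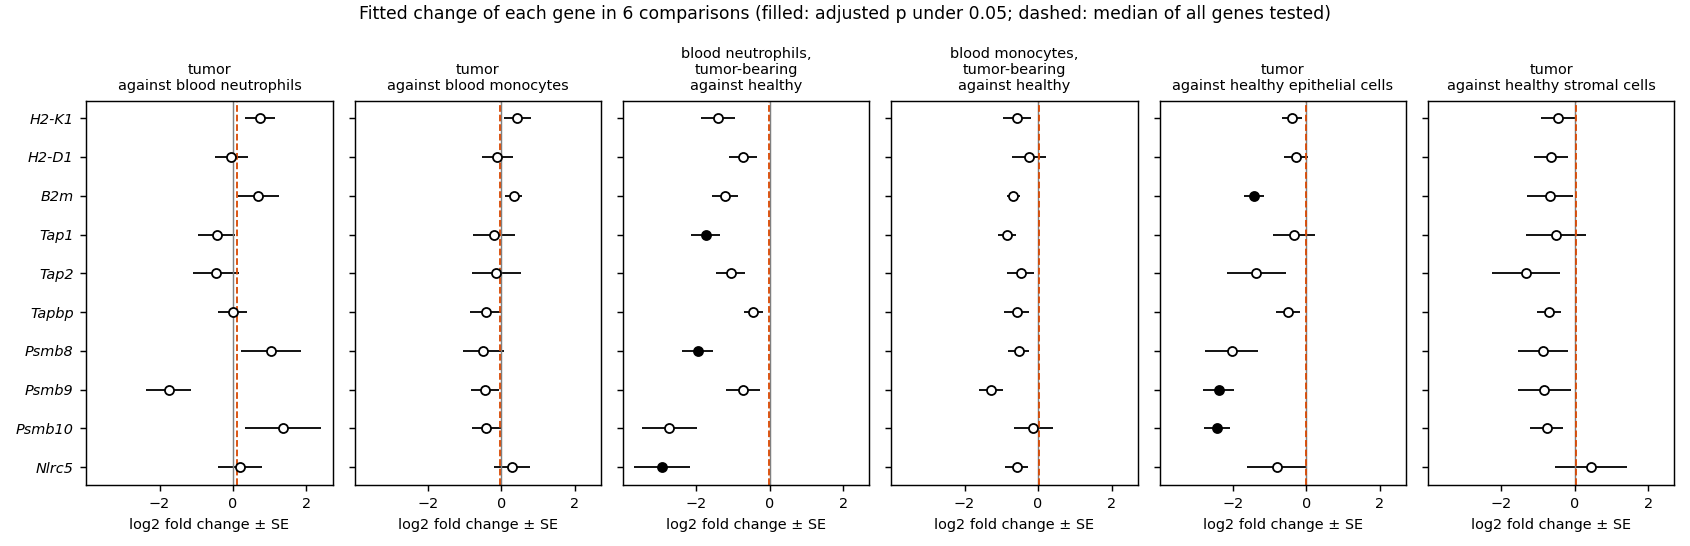
Fitted log2 fold change of each gene with its standard error in 6 comparisons of 4 against 4 libraries (edgeR). Filled points passed an adjusted p of 0.05, the dashed line is the median of all genes tested and the grey line is 0. All 10 points lie left of 0 in the 2 blood comparisons of tumor-bearing with healthy mice and in epithelial cells, with 3 filled points in blood neutrophils and 3 in epithelial cells. Some of these signs in blood monocytes and in epithelial cells changed under the alternatives.

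Replicate 4 of the healthy mice was the highest of its 4 libraries for all 10 genes. Without it, 1 of the 10 passed, and without healthy replicate 3 none did. Leaving out tumor-bearing replicate 1, 2, 3 or 4 left 0, 0, 1 and 0. By DESeq2 6 of the 10 passed. Neutrophil markers (S100a8, S100a9, Csf3r, Retnlg, Cxcr2 and Ly6g) summed to 15242 to 19946 RPKM in tumor-bearing and to 3687 to 8468 RPKM in healthy mice, and 2 of 6 were higher by the test. Class II and macrophage markers summed to 2.50 to 6.88 RPKM against 6.38 to 23.4 RPKM (0 of 2 tested passed, with C1qa at 0 in tumor-bearing mice), and platelet markers to 2.05 to 38.2 RPKM against 1.53 to 223 RPKM (0 of 3 passed). The part of these differences in the members' values was not tested.

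Of 31 other genes of the pathway, 29 could be tested in blood neutrophils. In tumor-bearing mice 4 were lower and none higher, against 2.93% and 3.59% of all genes. The class I heavy chains H2-Q4 (0.460 against 2.07 RPKM) and H2-Q10 (3.80 against 12.2 RPKM) were among those lower, with log2 fold changes of -2.18 ± 0.55 and -1.64 ± 0.33. H2-Q4 was at 0.351 to 0.650 RPKM against 0.865 to 4.35 RPKM. Whether these and the other heavy chains named below share reads with H2-K1, H2-D1 or each other was not tested. The constitutive subunits Psmb5 (0.03 ± 0.37), Psmb6 (0.14 ± 0.47) and Psmb7 (0.01 ± 0.38) did not pass.

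In blood monocytes no member passed in the same contrast (edgeR; 3 had an unadjusted p under 0.05, DESeq2 passed 1 and limma-voom none), and 0.124% of 15313 genes were lower and 0.0914% higher. All 10 log2 fold changes were negative with a median of -0.58, against 0.02 for all genes tested and 48.5% of genes below 0. Under the alternatives Psmb10 changed sign in 4 of 17 and H2-D1 in 1 of 17. B2m was at 1169, 886, 719 and 757 RPKM in tumor-bearing mice and at 1968, 1187, 1495 and 1404 RPKM in healthy mice, so the groups did not overlap. Its log2 fold change was -0.68 ± 0.18 (adjusted p = 0.189, edgeR). Tap1 was at 2.98 to 4.88 RPKM against 5.16 to 9.98 RPKM (-0.84 ± 0.24, adjusted p = 0.248, edgeR). Psmb9 was at 2.28 to 4.74 RPKM against 5.54 to 11.9 RPKM (-1.28 ± 0.32, adjusted p = 0.159, edgeR). These 3 were the members without overlap, against 5.06% of all genes. Among the other pathway genes 1 of 31 was lower, the class I heavy chain H2-T24 at 2.54 against 9.26 RPKM (-1.78 ± 0.27).

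Tumor epithelial cells were compared with healthy colon epithelial cells to ask whether adenoma cells carry less of the pathway. B2m, Psmb9 and Psmb10 were lower in tumors, 3 of 10 members against 12% of 16085 genes that passed in this direction and 10.6% that passed as higher. All 10 log2 fold changes were negative with a median of -1.09, against -0.01 for all genes tested, of which 50.5% were negative. The sign was not stable for every gene. H2-K1, H2-D1, Tap1 and Tapbp changed sign in 2 of 17 alternatives each, and Nlrc5 in 3 of 17. In deposited RPKM the tumor mean was higher for H2-K1 (4.00 against 3.34), H2-D1 (3.24 against 2.45), Tap1 and Nlrc5. It was lower for B2m, Tap2, Tapbp, Psmb8, Psmb9 and Psmb10.

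Psmb10 was at 0.564, 0.749, 1.66 and 0.837 RPKM in tumors and at 1.95, 5.92, 5.81 and 0.838 RPKM in healthy epithelium. Replicate 4 of the healthy epithelium was within the tumor range, and this library was low for most members in RPKM. After rescaling with TMM factors it was at 4.00 RPKM, and the tumor libraries (0.579 to 1.21 RPKM) lay below all healthy ones (2.64 to 5.91 RPKM). The log2 fold change of Psmb10 was -2.43 ± 0.35 (adjusted p = 0.00079, edgeR). Psmb9 was at 0.130, 0.122, 0.259 and 0.362 RPKM against 0.523, 1.40, 0.820 and 0.264 RPKM, and at 0.133 to 0.334 against 0.726 to 1.43 RPKM after rescaling. Its log2 fold change was -2.39 ± 0.42 (adjusted p = 0.00236, edgeR). B2m was at 60.1, 87.1, 107 and 158 RPKM against 131, 333, 245 and 57.7 RPKM, and at 63.7 to 146 against 182 to 341 RPKM after rescaling. Its log2 fold change was -1.44 ± 0.28 (adjusted p = 0.00406, edgeR). These 3 passed without each of the 8 libraries in turn, but limma on log2(RPKM + 1) passed 1 member and on log2(RPKM + 0.1) none.

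Psmb8 (-2.04 ± 0.71, adjusted p = 0.0657, edgeR) did not pass, at 0.0694 to 0.580 RPKM in tumors against 0.171 to 1.69 RPKM. The heavy chains overlapped between the tissues. H2-K1 was at 2.69 to 5.46 RPKM in tumor and 1.26 to 5.26 RPKM in healthy epithelium, and H2-D1 at 1.72 to 5.15 and 0.956 to 3.75 RPKM. Tap1 was at 0.225 to 0.664 against 0.0689 to 0.690 RPKM, and Tap2 at 0.0260 to 0.230 against 0.0450 to 0.191 RPKM, on 5.0 to 71 counts per library in tumors. Tapbp and Nlrc5 overlapped too, at 1.19 to 2.73 against 0.561 to 3.84 RPKM and at 0.0536 to 0.371 against 0.0286 to 0.247 RPKM.

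Among the other pathway genes 4 of 31 were lower and 3 higher in tumor epithelium, against 12% and 10.6% of all genes. Ifngr1, a chain of the interferon gamma receptor, was lower (3.16 against 6.05 RPKM, log2 fold change -1.62 ± 0.33), as were H2-T23 (-1.93 ± 0.53) and the proteasome activator Psme2 (-1.08 ± 0.35). The chaperone Calr was higher (18.2 against 8.33 RPKM, 0.64 ± 0.17), and so were the nonclassical heavy chains Mr1 (3.44 ± 0.89) and Cd1d1 (2.30 ± 0.59), at 0.175 and 0.196 RPKM in tumors. Epithelial markers passed as lower in tumors for 3 of 6 and macrophage and class II markers for 2 of 3 tested, the latter summing to 1.62 to 12.5 RPKM against 2.75 to 84.7 RPKM. No T cell marker was abundant enough to be tested (0.0692 to 0.486 against 0.0234 to 0.185 RPKM in sum). Healthy epithelial replicate 4 had 83.9% of its counts in mitochondrial genes, the highest share of the 40 libraries, and its epithelial markers stood at 23.6% of their mean in tumor epithelium, where the other 3 healthy libraries stood at 98.5% to 173%. The part of these markers and shares in the members' values was not tested.

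In stromal cells no member passed between tumor and healthy colon by edgeR, DESeq2 or limma-voom (edgeR gave 0 an unadjusted p under 0.05), where 5.56% of 19081 genes were lower and 3.99% higher, and 9 of 10 fold changes were negative with a median of -0.69 (48.7% of all genes were negative). Nlrc5 changed sign in 5 of 18 alternatives, and B2m, H2-K1 and Tap1 in 1 of 18 each. All 10 genes were lower in tumor stromal replicates 1 and 2 than in replicates 3 and 4. B2m was at 92.3, 181, 893 and 750 RPKM in the 4 libraries against 749 to 1081 RPKM in healthy stroma, and Nlrc5 was at 0.173, 0.436, 5.34 and 3.86 RPKM against 0.406 to 4.04 RPKM. Replicates 1 and 2 held the epithelial markers given above and summed to 0.504 and 1.06 RPKM for T cell markers, where replicates 3 and 4 summed to 9.96 and 15.7 RPKM. Neutrophil markers summed to 40.9 and 8.46 RPKM in replicates 1 and 2 and to 1508 and 511 RPKM in replicates 3 and 4, and 2 of 6 passed as higher in tumor stroma. Mitochondrial genes took 55.4% and 62.9% of the counts in replicates 1 and 2 and 27.4% and 24.8% in replicates 3 and 4. The part of these values in the members' levels was not tested. Without replicates 1 and 2 still no member passed. Fibroblast markers were lower in tumor stroma for 6 of 6 (5.97 to 24 against 355 to 2010 RPKM). The difference between the change in epithelial and that in stromal cells passed for no member (1 had an unadjusted p under 0.05, and DESeq2 passed 1), with Psmb10 nearest to the threshold (difference of log2 fold changes -1.66 ± 0.57, adjusted p = 0.0624, edgeR, against 7.93% of 20901 genes that passed as lower and 7.21% as higher). Without tumor stromal replicates 1 and 2, 2 members passed.

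Tumor neutrophils and tumor monocytes were compared with their blood counterparts of tumor-bearing mice, libraries that also entered the blood comparison above. No member passed by edgeR in neutrophils (1 had an unadjusted p under 0.05, and DESeq2 and limma-voom passed 1 each), where 12.5% of 13674 genes were higher and 5.39% lower, nor in monocytes (0 had an unadjusted p under 0.05, and DESeq2 and limma-voom passed 0), where 10.9% of 15280 genes were higher and 6.28% lower. For the members the median log2 fold change was 0.09 in neutrophils (0.11 for all genes) and -0.17 in monocytes (-0.03 for all genes). Psmb9 in neutrophils was nearest to the threshold, at 0.638, 1.61, 0.707 and 0.559 RPKM in tumors and at 2.06, 2.52, 4.94 and 4.42 RPKM in blood. Its groups did not overlap, as for 13.7% of genes in this direction. The log2 fold change was -1.75 ± 0.61 (adjusted p = 0.0739, edgeR), and 5 of 9 alternative analyses passed it. H2-K1 in neutrophils was at 6.52 to 9.10 RPKM in tumors and 3.28 to 7.45 RPKM in blood, and B2m at 272 to 1150 and 443 to 670 RPKM. In monocytes B2m was at 527 to 1123 RPKM in tumors and at 719 to 1169 RPKM in blood. The difference between the neutrophil and the monocyte change from blood to tumor passed for no member (0 had an unadjusted p under 0.05, and DESeq2 and limma-voom passed 0), against 2.73% of 17465 genes higher and 1.26% lower.

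Among the other genes of the pathway, Canx, a chaperone of new heavy chains, was higher in tumor neutrophils (6.52 against 0.775 RPKM, log2 fold change 2.97 ± 0.44). Canx was the 1 of 29 tested to pass, against 12.5% of all genes higher and 5.39% lower. Its change was larger than in monocytes by 2.02 ± 0.49 on the log2 scale, a difference that passed (as for 2.73% of all genes in this direction). Without tumor neutrophil replicate 1 both passed, at 2.64 ± 0.39 and 1.73 ± 0.43. Markers of other cells were also higher in tumor than in blood neutrophils. Of the epithelial markers 5 of 5 tested passed as higher (8.58 to 91.5 against 0.0692 to 0.129 RPKM in sum), of the macrophage and class II markers 4 of 5 (23.6 to 34.0 against 2.50 to 6.88 RPKM) and of the fibroblast markers 3 of 5 (1.75 to 4.69 against 0.244 to 0.900 RPKM). Canx was at 18.8 RPKM in tumor epithelium, and the part of these cells in its change was not tested. In tumor monocytes 5 of 31 were higher and 1 was lower, against 10.9% and 6.28% of all genes. Among those higher were the kinase Jak2 (20.9 against 6.02 RPKM), Calr (23.1 against 11.0 RPKM) and H2-Q4 (1.52 against 0.704 RPKM). Ifngr1 was lower (17.1 against 37.9 RPKM).

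Within tumors, all 10 members were higher in monocytes than in epithelial cells, against 16.4% of 19026 genes (15.6% were lower). For 6 of the 10 every monocyte library lay above every epithelial one, against 17% of genes. The log2 differences were between 1.82 (H2-K1) and 4.78 (Nlrc5). B2m was at 1114, 988, 527 and 1123 RPKM in tumor monocytes, all above the 60.1 to 158 RPKM of tumor epithelium (3.40 ± 0.69, adjusted p = 0.00166, edgeR). Nlrc5 was at 9.52, 2.06, 3.55 and 2.13 RPKM against 0.0536 to 0.371 RPKM (4.78 ± 0.96, adjusted p = 0.00161, edgeR). With the animal in the title as a block, 5 of the 10 passed.

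Tumor neutrophils were higher than tumor epithelial cells for 8 of 10 members, against 19.6% of genes (5.11% were lower), and the 2 that did not pass were Psmb10 and Nlrc5. B2m had the largest difference (3.83 ± 0.70, adjusted p = 0.000618, edgeR), and the heavy chain H2-D1 was at 7.91, 12.5, 10.3 and 9.54 RPKM against 1.72 to 5.15 RPKM (2.65 ± 0.42, adjusted p = 0.000198, edgeR). Nlrc5 was at 0.735, 0.375, 0.538 and 0.351 RPKM in tumor neutrophils (2.22 ± 0.86, adjusted p = 0.0691, edgeR). Again 6 of the 10 did not overlap, against 12.1% of genes. Neutrophil markers were higher in neutrophils for 6 of 6, but 0 of 6 epithelial markers passed in either direction. In tumor monocytes 5 of 6 epithelial markers were lower than in tumor epithelium. The part of these markers in the members' values was not tested. With the animal as a block 4 of the 10 passed.

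Psmb10 was the 1 member that differed between tumor neutrophils and tumor monocytes, against 4.63% of genes lower and 10.9% higher in neutrophils. It was at 0.525, 0, 0.333 and 0.810 RPKM in neutrophils and at 7.75, 4.59, 3.38 and 3.10 RPKM in monocytes, without overlap (-2.98 ± 0.85, adjusted p = 0.0275, edgeR). Nlrc5 did not overlap either (12.5% of genes did so in this direction) but missed the threshold (-2.56 ± 0.87, adjusted p = 0.0551, edgeR). Without tumor neutrophil replicate 1 and tumor stromal replicates 1 and 2, 2 members passed, and with the animal as a block none did.

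Against tumor stromal cells, H2-D1 (1.39 ± 0.41, adjusted p = 0.0243, edgeR) and Tapbp (1.43 ± 0.46, adjusted p = 0.0411, edgeR) were higher in tumor neutrophils, 2 of 10 against 14.0% of genes higher and 4.5% lower, and no member passed in tumor monocytes (8.98% of genes higher, 13.7% lower). In monocytes 2 members had an unadjusted p under 0.05, and DESeq2 and limma-voom passed 1 each. Nlrc5 was lower in tumor epithelial than in tumor stromal cells (-3.64 ± 0.91, adjusted p = 0.0324, edgeR), 1 of 10 against 4.1% of genes lower and 0.0105% higher. All 10 differences had this sign (49.7% of genes), and without tumor stromal replicates 1 and 2 the count was 7 of 10. Between neutrophils and stroma 1 member passed without those replicates, and with the animal as a block none passed in either comparison. Epithelial markers passed for 0 of 6 between tumor epithelium and tumor stroma. Fibroblast markers were lower in epithelium for 4 of 6 and endothelial markers for 4 of 5. Between neutrophils and stroma 0 of 6 epithelial markers passed, and 6 of 6 neutrophil markers were higher in neutrophils. The part of these markers in the members' values was not tested.

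Of the 31 other genes of the pathway, tumor neutrophils were higher than tumor epithelial cells for 14 and lower for 3, against 19.6% and 5.11% of all genes. Tumor monocytes were higher for 11 and lower for none, against 16.4% and 15.6%. The heavy chain H2-T24 was at a mean of 3.53 RPKM in tumor neutrophils and 0.502 RPKM in tumor epithelium (3.90 ± 0.86). Erap1, which trims peptides in the endoplasmic reticulum, and Pdia3, a loading chaperone, went the other way in neutrophils. Erap1 was at 0.435 RPKM in tumor neutrophils, 3.54 RPKM in tumor monocytes, 1.86 RPKM in tumor epithelium and 2.01 RPKM in tumor stroma, and it was lower in neutrophils in all 3 comparisons. Pdia3 was at 12.2 RPKM in tumor neutrophils, below monocytes (52.4 RPKM) and epithelium (52.8 RPKM). Between tumor epithelium and tumor stroma 2 of 31 were lower and none higher, against 4.1% and 0.0105% of all genes. The 2 were the heavy chains H2-Q7 (0.669 against 3.22 RPKM) and H2-Q10 (0.552 against 2.35 RPKM).

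Each immunoproteasome subunit was set against the constitutive subunit it replaces, as the log2 ratio of their RPKM within a library. In tumor epithelium the mean ratio of Psmb10 to Psmb7 was -2.20 ± 0.30 (SD, n = 4), and in healthy epithelium it was 0.21 ± 0.30. The libraries did not overlap, and the ratio is not affected by the scale of a library. The ratio of Psmb9 to Psmb6 was -3.27 ± 0.89 against -0.89 ± 0.61, also without overlap. In each of these the exact two-sided permutation test gave p = 0.0286, the smallest that 4 against 4 libraries allow, and over the 18 ratios tested the adjusted p was 0.103. Psmb8 to Psmb5 was at -3.67 ± 1.03 against -1.37 ± 2.07 and overlapped.

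In blood neutrophils the ratio of Psmb10 to Psmb7 was -3.58 ± 1.15 in tumor-bearing and -0.91 ± 1.09 in healthy mice, and that of Psmb8 to Psmb5 was 0.04 ± 0.47 and 1.88 ± 1.05. Neither overlapped, and both stood at the same smallest p. In blood monocytes the ratio of Psmb9 to Psmb6 did so as well, at 0.58 ± 1.03 against 2.30 ± 0.90. The other 13 of the 18 comparisons overlapped. No ratio passed after adjustment, but this decides nothing. With this smallest p, a ratio could pass only if most of the 18 stood at it.

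**Figure D3:**
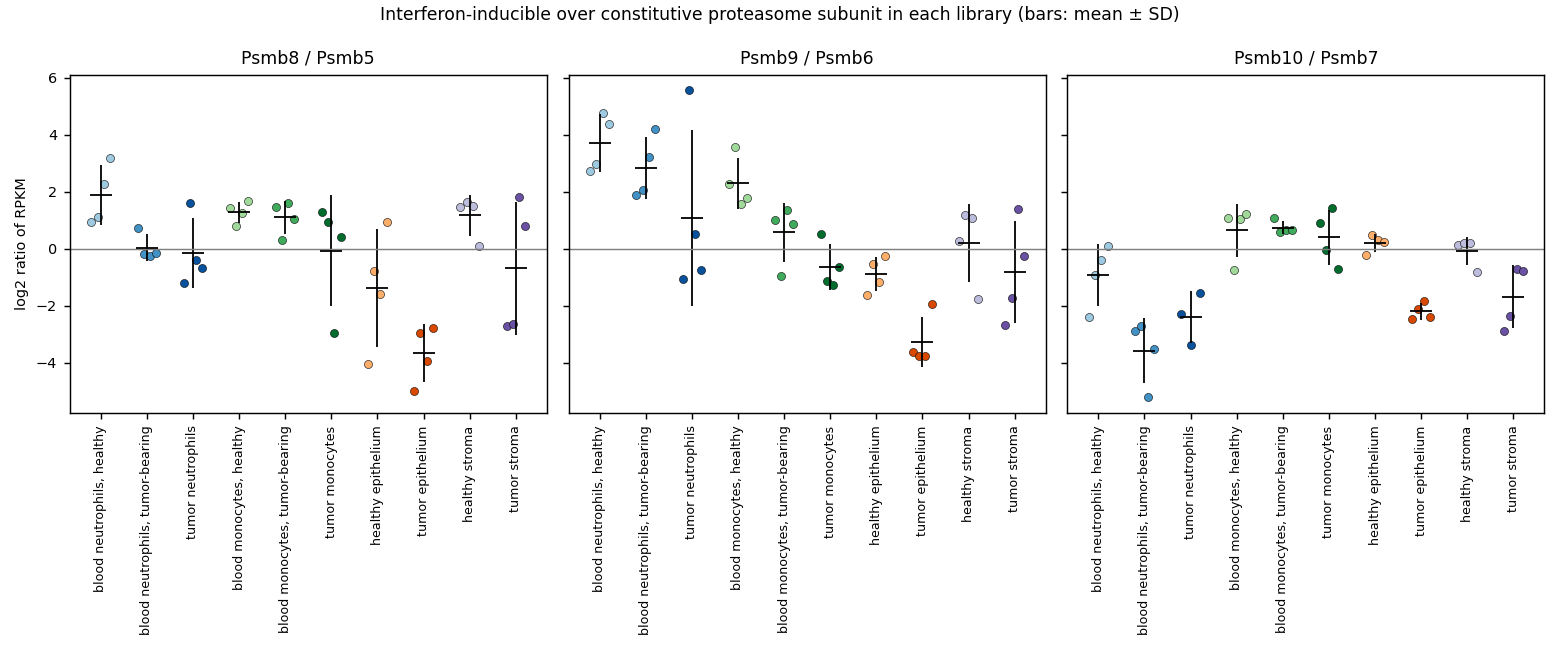
Log2 ratio of the RPKM of each interferon-inducible proteasome subunit to the constitutive subunit it replaces. Points are libraries, and the bars give the mean and SD of a group (3 tumor neutrophil libraries for Psmb10 to Psmb7, since Psmb10 was at 0 in the other one, and 4 elsewhere). Tumor epithelium has the lowest mean for Psmb8 to Psmb5 (-3.67) and Psmb9 to Psmb6 (-3.27), and blood neutrophils of tumor-bearing mice have it for Psmb10 to Psmb7 (-3.58). This last rank leaves out the tumor neutrophil library with Psmb10 at 0, which could change it.

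The heavy chains were set against B2m, their light chain, in the same way. In tumor epithelium the log2 ratio of H2-K1 to B2m was -4.68 ± 0.35, and in healthy epithelium it was -5.79 ± 0.22. That of H2-D1 to B2m was higher in tumors by 1.13 on the log2 scale. Both ratios were without overlap at p = 0.0286 (exact permutation test, two-sided), the smallest possible here. Over 12 ratios the adjusted p of this test was 0.171, and a pass would have needed most of the 12 at that p. In the other 10 comparisons the groups overlapped.

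Levels of the 10 genes varied together over the libraries. Over all 40 libraries, which share cell types and depth, Pearson correlations between pairs of members on log2(RPKM + 1) had a median of 0.78 and were between 0.18 (H2-D1 and Psmb10) and 0.89 (Tap1 and Psmb9, neighbors on the chromosome whose transcripts overlap). After the mean of each group was subtracted the median was 0.62, the highest value was 0.95 (H2-K1 and H2-D1, whose reads may be shared) and the lowest was 0.23 (Psmb10 and Nlrc5). This step leaves differences between libraries of a group, such as mitochondrial shares of 48.6% to 83.9% in healthy epithelium. Pairs of other genes were not compared, and the part of such differences in the correlations was not tested.

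**Figure D4:**
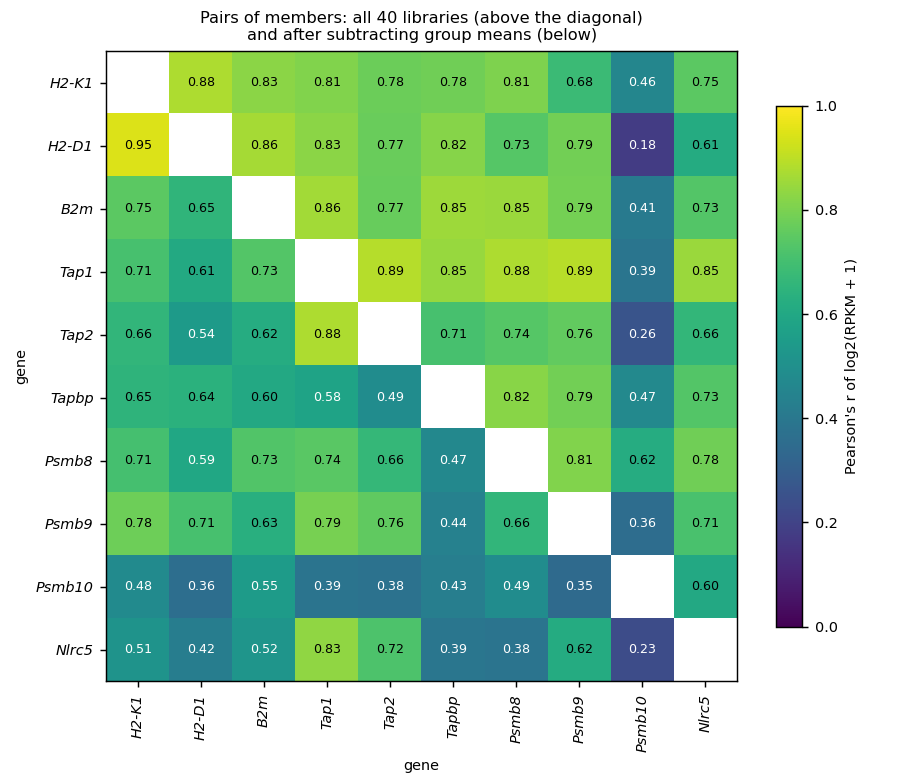
Pearson correlation between each pair of the 10 genes on log2(RPKM + 1) over 40 libraries, above the diagonal, and after subtraction of the group means, below it. The row and column of Psmb10 hold the lowest values, down to 0.18 with H2-D1 above the diagonal and 0.23 with Nlrc5 below it.

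Among 1904 genes with a mean of at least 5 RPKM, those most like the mean of the 10 standardized members over 40 libraries included Parp14 (r = 0.94), Slfn5 (0.93), Trafd1 (0.93), Ifi47 (0.91), Tor1aip1 (0.90), Dtx3l (0.90), Rnf213 (0.89), Stat2 (0.88) and Sh2b3 (0.88). Within groups the nearest included Oasl2 (0.87), Ifi47 (0.86), Trafd1 (0.85), Trim30e-ps1 (0.85), Rtp4 (0.85), Helz2 (0.84), Trim30d (0.84), Igtp (0.84) and Parp14 (0.83). Parp14, Trafd1 and Ifi47 were in both lists. These values describe the libraries, and no test was run on them.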

How the data were processed

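Neutrophils, monocytes, epithelial cells and stromal cells were sorted from 40 samples, amplified with the NuGEN Ovation system and sequenced by Illumina short reads. The authors mapped reads to mm10 with Bowtie2 (named in the submitters' processing notes, with bcl2fastq and limma) and counted them per gene with HTSstation. They deposited estimated counts, of which 99.6% of the nonzero values were not whole within 1e-06 and were rounded here, and RPKM, whose handling of reads with several matches is not given in the sources used here. Of 45706 genes, 45143 had a symbol.

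Counts were tested with edgeR 4.0.16 in R 4.3.3 (TMM factors, filterByExpr, robust quasi-likelihood test) on the libraries of each comparison, with 1 fit over the 4 tumor cell types. A gene passed at a Benjamini-Hochberg adjusted p under 0.05 over all genes tested. The standard error (SE) of an edgeR fold change was derived from the test. It is the absolute log2 fold change divided by the square root of the F statistic. The study's own rule adds an absolute log2 fold change above 1.5. Alternatives were limma-voom (limma 3.58.1), DESeq2 1.42.0, other filters and scalings, a replicate block, the animal named in the title as a block, limma on log2(RPKM + 1) and log2(RPKM + 0.1), and each library left out. After the data were seen, 3 more were added: TMM-scaled RPKM for the order of groups, RPKM + 0.1 in ratios, and tumor cell types without 3 libraries with epithelial markers. Ratios were tested with exact permutation tests (scipy 1.17.1). The edgeR test between pairs of groups was tried on simulated data. The fits of more than 2 groups, the block fits and the ratio tests were not. The labels give the replicate number 3 to a pair of tumor stromal libraries, and the second is called replicate 4 here.

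The rule for named genes took all 10 members and up to 3 other pathway genes per direction by size of change. A gene that the rule names is not reported here. Members and lists were chosen with earlier results of these data known. Gene positions came from the GENCODE annotation of mm10. Promoter windows came from RefSeq, GRCm38.p6; those of Tap2 and Nlrc5 were not analysed here. Total counts per library (10717873 to 38002939) set the precision. Within a group, libraries came from different or pooled animals, as far as the titles tell.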

Additional observations from a re-analysis of the deposited data

Results flagged for a closer look

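In 5 of 100 sets of 4 libraries (10 genes in 10 groups) 1 library lay far from the other 3, by a rule that chance meets in about 1 in 20 sets. Tapbp was at 9.98 RPKM in blood neutrophils of healthy mice replicate 4, where the nearest library was at 6.87 RPKM. Psmb9 was at 3.31 RPKM in tumor monocytes replicate 1, against 1.57 RPKM in the nearest library. In tumor neutrophils replicate 2 it was at 1.61 RPKM, against 0.707 RPKM. Psmb10 was at 12.7 RPKM in blood monocytes of tumor-bearing mice replicate 1, against 6.33 RPKM. Nlrc5 was at 0.0930 RPKM in blood neutrophils of tumor-bearing mice replicate 2, against 0.523 RPKM, on 45 counts.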

How the results depend on the processing

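No fold change with an unadjusted p under 0.05 (50 of 140) changed sign under any alternative, and of the other 90, 53 did. The number of members that passed moved as follows. By DESeq2 it was 6 instead of 3 in blood neutrophils, 1 instead of 0 in blood monocytes, in tumor against blood neutrophils, in the epithelial against stromal change and in tumor monocytes against stroma, 2 instead of 1 in tumor neutrophils against monocytes and 4 instead of 1 in tumor epithelium against stroma. By limma-voom it was 1 in tumor against blood neutrophils and in tumor monocytes against stroma, 1 instead of 2 in tumor neutrophils against stroma and 0 in tumor epithelium against stroma. With 10 counts in every library it was 1 in tumor against blood neutrophils, 0 in tumor neutrophils against stroma and 2 in tumor epithelium against stroma. By limma on log2(RPKM + 1) and log2(RPKM + 0.1) it was 1 and 1 in tumor against blood neutrophils, 1 and 0 in tumor against healthy epithelium, 2 and 2 in tumor neutrophils against monocytes, 3 and 5 instead of 8 in tumor neutrophils against epithelium, 0 and 1 in tumor neutrophils against stroma, 1 and 1 in tumor monocytes against stroma and 0 and 0 in tumor epithelium against stroma. Without mitochondrial genes it was 2 in tumor neutrophils against monocytes and 1 in tumor neutrophils against stroma, where it was 0 with no filter on low counts and 0 with an absolute log2 fold change above 1.5. That threshold also left 2 instead of 3 in tumor against healthy epithelium, without B2m (-1.44). With the animal as a block it was 0 in tumor neutrophils against monocytes, 4 against epithelium and 0 against stroma, 5 in tumor monocytes against epithelium and 0 in tumor epithelium against stroma. Without tumor stromal replicates 1 and 2 together it was 2 in the epithelial against stromal change, 2 in tumor neutrophils against monocytes, 1 in tumor neutrophils against stroma and 7 in tumor epithelium against stroma. With tumor neutrophil replicate 1 left out too it was 2 in tumor neutrophils against monocytes and 7 in tumor epithelium against stroma. The cause was not tested.

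Leaving out 1 library gave 0 to 2 members in tumor against blood neutrophils, 0 to 4 in blood neutrophils, 0 to 1 in the neutrophil against monocyte change and in the epithelial against stromal change, and 3 to 4 in tumor against healthy epithelium. Within tumors it gave 0 to 2 in neutrophils against monocytes, 5 to 9 in neutrophils against epithelium, 0 to 3 in neutrophils against stroma, 7 to 10 in monocytes against epithelium, 0 to 1 in monocytes against stroma and 0 to 5 in epithelium against stroma.

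In no comparison did every pair of libraries with the same replicate number deviate together (correlation over 0.1), so the number was not taken as a pairing. By the titles some tumor and blood libraries share an animal, in neutrophils under different replicate numbers, which this check cannot see. The animal was used as a block only within tumors. In blood monocytes, tumor-bearing against healthy, the 4 correlations were 0.0839, 0.139, 0.0886 and 0.251, and 7 of 8 libraries correlated best with their own number, a hint from the data only. A replicate block gave 1 instead of 2 in tumor neutrophils against stroma, 0 instead of 1 in tumor epithelium against stroma and 4 instead of 3 in blood neutrophils. Depth limits Psmb10 in neutrophils and Tap2 in epithelium most, with as few as 0 and 5.0 counts.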
